A study of Arabidopsis thaliana with 12 samples.

Results

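Among 390 miRNA names listed in shoots of Arabidopsis thaliana, 174 were predicted miRNAs, numbered as NovelmiRNA, and 22 of these had counts in all 12 libraries and a profile of their own. They were chosen by a rule on their deposited counts. The rule took predicted names with a count above 0 in every library, which gave 35 names, counted identical rows as a single row and left out rows identical to a known A. thaliana miRNA. Of the 35, 10 were left out for the last reason. Another 3 carried the same 12 counts as a member and are named with it: NovelmiRNA-15 with NovelmiRNA-14, NovelmiRNA-90 with NovelmiRNA-89, and NovelmiRNA-97 with NovelmiRNA-96. The remaining 139 predicted names were at 0 in at least 1 library, 6 of them in exactly 1. A rule of this kind keeps out every predicted name that disappears in a whole group, so no such switch could appear among the members.

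The libraries were small RNA libraries from total RNA of shoot tissue, 3 biological replicates in each of 4 groups. The groups were Col-0 wild type (WT) and a hasty knockout, each in a control condition and in low nitrogen (low N). Plants were 10 days old, and the low N plants had 5 days of standard nutrients followed by 5 days of low N. The labels do not describe the control medium separately, and the treatment text of the control samples also mentions low N. What control plants received after the first 5 days is therefore not clear from the labels. The labels also name no hasty allele and do not say how many plants or lines a replicate holds. Neither the genotype nor the tissue label could be checked here, because the table lists miRNA names and no mRNA of HASTY or of a shoot marker.

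Plant miRNAs are cut from hairpin transcripts in the nucleus by DICER-LIKE 1 with HYPONASTIC LEAVES 1 and SERRATE, and most are loaded into ARGONAUTE 1, which represses transcripts of matching sequence. HASTY is the plant orthologue of the animal nuclear export receptor exportin-5, and loss of HASTY is known to lower the level of many, but not all, miRNAs. Predicted miRNAs are names that software gives to small RNA reads whose surroundings can fold as a hairpin. Many such loci are young, weakly expressed or variants of a known family, and no target or function is attached to a predicted name here.

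No sequence or position of a predicted name was among the data used here, so the members are described by their counts. Only NovelmiRNA-132 had a known miRNA whose counts stayed within 10% of its own in all 12 libraries. The sequences of those known names are shown because they are the only sequences the counts of a member point to. In RefSeq's annotation of the TAIR10.1 assembly, 4 names of the miR169 family that met this limit have the same mature sequence of 21 bases, written 5′ to 3′ with the seed (bases 2 to 8) in capitals.
miR169j: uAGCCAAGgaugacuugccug
miR169k: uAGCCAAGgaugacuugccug
miR169m: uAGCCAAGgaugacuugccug
miR169n: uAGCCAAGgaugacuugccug
All lie on the minus strand of chromosome 3, each within its own MIR169 gene: miR169j at chr3:9872483-9872503 (AT3G26813), miR169k at chr3:9875675-9875695 (AT3G26815), miR169m at chr3:9878318-9878338 (AT3G26818) and miR169n at chr3:9878690-9878710 (AT3G26819). The miR169 family is known in A. thaliana to act on transcripts of NF-YA transcription factors.

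NovelmiRNA-132 had deposited counts of 458, 465 and 463 in control WT, 276, 269 and 196 in control hasty, 51, 60 and 76 in low-N WT, and 45, 55 and 91 in low-N hasty. The counts of miR169n, which were also those of miR169j, equalled these in 8 of the 12 libraries, and the largest difference was 3.95%. For miR169k and for miR169m the largest difference was 7.14%. The counts of miR169m were in turn those of NovelmiRNA-131, one of the 10 names left out. Whether NovelmiRNA-132 has the sequence above was not tested, and its values are no independent measurement beside those of miR169n.

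**Figure D1:**
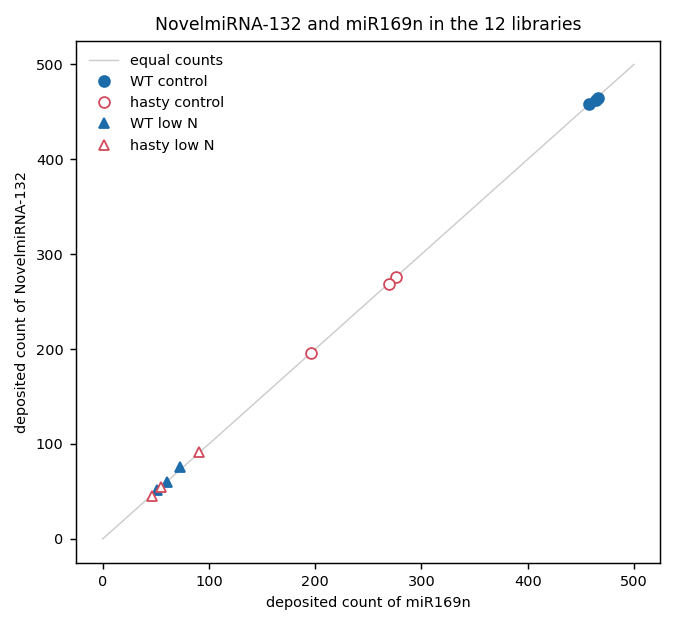
Deposited counts of NovelmiRNA-132 (y axis) against those of miR169n (x axis), 1 point for each of the 12 libraries, with colour for genotype, shape for nitrogen and a line of equal counts. The points lie on or beside the line, and the 3 control WT libraries, at 458 to 465 counts, stand apart from the 6 low N libraries at 45 to 91.

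Levels are given below as counts per 1000000 listed counts (CPM), scaled by TMM factors, which set the libraries on a common scale from the bulk of the names, with mean ± SD and n = 3. Level differences were tested with edgeR over all 273 names that passed a filter on low counts, and "called" means a Benjamini-Hochberg adjusted p under 0.05 over those names. The filter kept all 22 members. Table totals ran from 2808655 to 3226269 in control WT, 1946702 to 2324323 in control hasty, 2299445 to 2539507 in low-N WT and 1292752 to 1767854 in low-N hasty, so totals were lower in hasty than in WT within each condition. The part of these totals in the differences below was not tested. TMM factors ran from 0.861 to 1.21. Replicates differed by far more than counting error, with chi-square values per degree of freedom of 30.2 to 215. In bulk shoots, fewer cells of a type and less RNA per cell cannot be told apart.

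The members spanned from 9.42 to 5104 CPM in their mean over the 12 libraries, and stood from place 25 to place 209 among the 245 distinct tested profiles. NovelmiRNA-173 was the most abundant, followed by NovelmiRNA-7, NovelmiRNA-127, NovelmiRNA-128, NovelmiRNA-14 and NovelmiRNA-5. Lengths of the predicted miRNAs were not known here, so these levels carry no length correction. The biological coefficient of variation fitted by edgeR ran from 0.145 for NovelmiRNA-173 to 0.481 for NovelmiRNA-34. The 22 members held 0.731% ± 0.0328 of the table's counts in control WT, 1.04% ± 0.0443 in control hasty, 0.648% ± 0.0634 in low-N WT and 0.954% ± 0.0770 in low-N hasty (SD, n = 3). NovelmiRNA-173 alone held most of these counts, for example 12007 of 20584 in control WT replicate 1 and 14610 of 22908 in control hasty replicate 1. The share is given without a test, since the names were chosen together.

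At the edge of the rule, NovelmiRNA-34 had the lowest count of a member, with 44, 11 and 23 counts in control WT, 10, 7 and 12 in control hasty, 30, 17 and 33 in low-N WT, and 22, 15 and 22 in low-N hasty. In total, 19 of the 22 members had at least 10 counts in every library. Just outside, NovelmiRNA-46 was listed at 0 in control hasty replicate 3 and at 247 to 607 in the other libraries. NovelmiRNA-40 was at 0 in low-N WT replicate 2 and at 110 to 297 elsewhere, and NovelmiRNA-83 at 0 in low-N WT replicate 1 and at 56 to 289 elsewhere. NovelmiRNA-42 was at 0 in low-N WT replicate 3 and at 107 to 161 elsewhere. NovelmiRNA-139 carried the counts of NovelmiRNA-138 in 11 libraries and 0 in low-N hasty replicate 3, where NovelmiRNA-138 had 9. A single 0 therefore decided membership, for 4 of these 5 names beside counts of 56 or more in the other libraries.

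**Figure D2:**
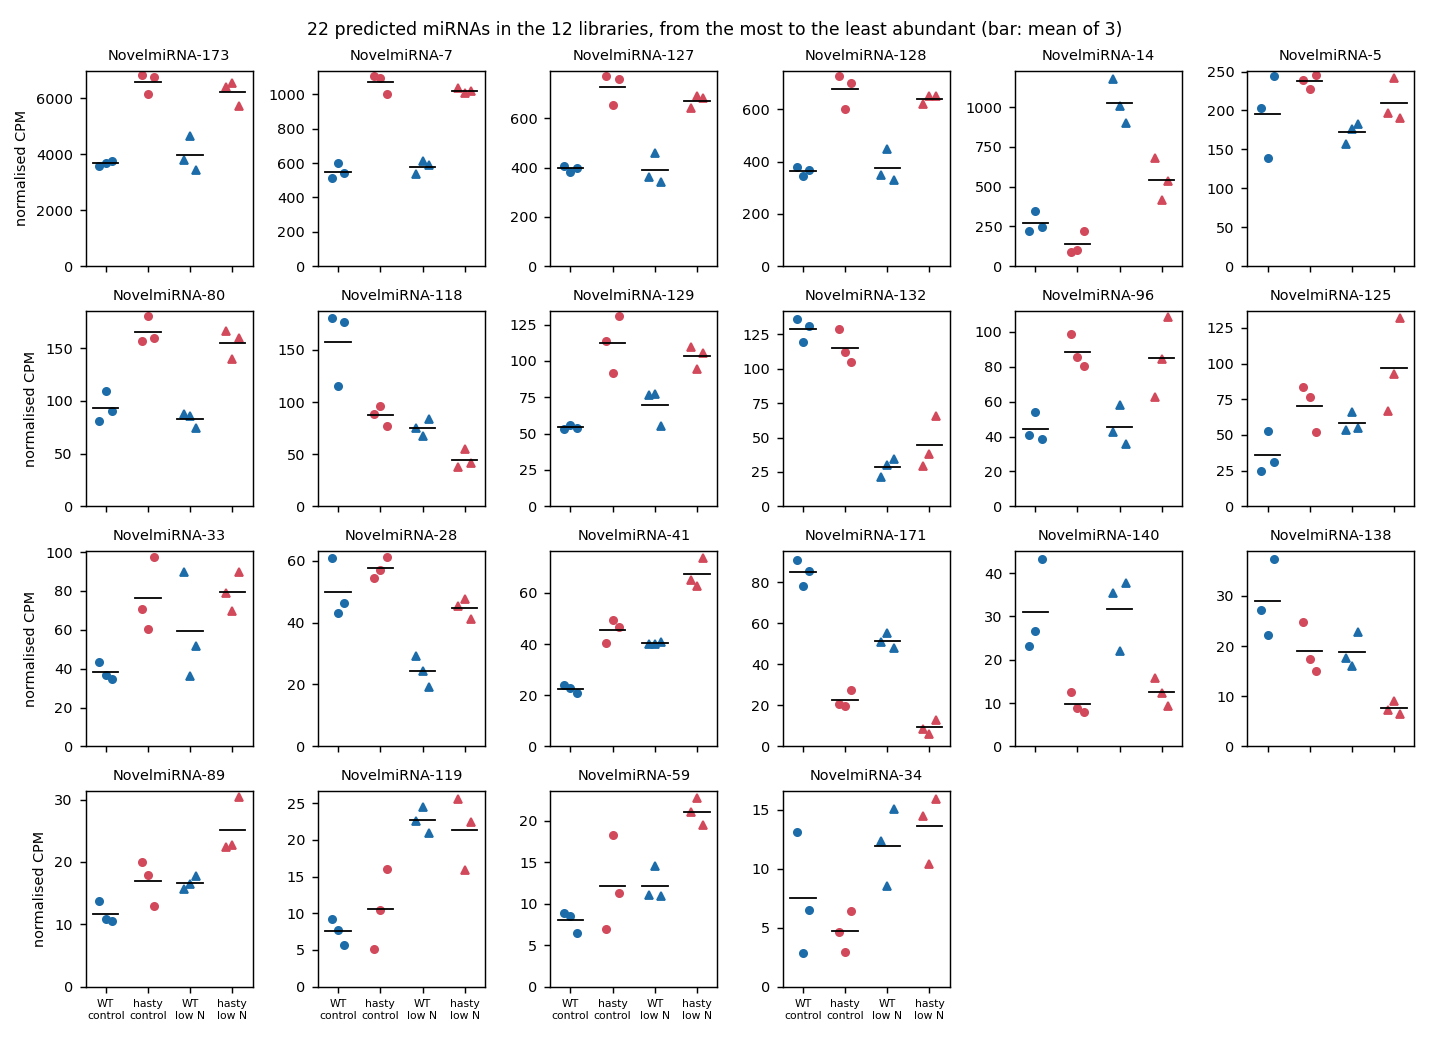
TMM-normalised CPM (y axis, from 0, a scale of its own in each panel) of the 22 members in the 12 libraries, in blue for WT and red for hasty, circles for control and triangles for low N, with a bar at the mean of 3. The 4 most abundant members are higher in both red groups, while NovelmiRNA-171 and NovelmiRNA-140 are lower in both.

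Loss of HASTY in control plants went with higher levels of 10 of the 22 members and lower levels of 4. Over all 273 tested names, 18.7% were called higher and 27.1% lower in this contrast. The members' median change was 0.57 on the log2 scale, against 0 over all tested names. Among the 124 distinct known miRNAs that also had counts in every library, 29 were called higher and 46 lower. In low N, 9 members were called higher in hasty and 4 lower, where 11.4% and 23.4% of all tested names were called higher and lower. There the members' median log2 change was 0.62, against 0 over all names, and of the known miRNAs 11 were called higher and 45 lower. The low-N background depended on the setting: edgeR with TMM called 31 of all tested names higher and 64 lower, edgeR with median-of-ratios factors 47 and 59, DESeq2 73 and 70, and edgeR without control hasty replicate 2, 50 and 50. The control background also depended on the setting: edgeR with TMM called 51 of all tested names higher and 74 lower. With median-of-ratios factors edgeR called 63 and 67, and DESeq2 called 74 and 69. In control, DESeq2 added NovelmiRNA-5 and NovelmiRNA-89 to the members called and lost NovelmiRNA-14. With DESeq2, 14 members were called higher and 4 lower in low N. These counts and medians describe the members, and no test of the members as a group was made.

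The 7 members NovelmiRNA-7, NovelmiRNA-173, NovelmiRNA-127, NovelmiRNA-128, NovelmiRNA-80, NovelmiRNA-96 and NovelmiRNA-129 were called higher in hasty in both conditions and were not called between nitrogen conditions in either genotype with edgeR and TMM factors. Under other settings NovelmiRNA-127 and NovelmiRNA-80 were called for low N in WT with library totals, and NovelmiRNA-129 without low-N WT replicate 3. The 7 include the 4 most abundant members. NovelmiRNA-173 was at 3576, 3700.3 and 3754 CPM in control WT and at 6813, 6144 and 6769 in control hasty. In low N it was at 3773, 4638 and 3447 CPM in WT and at 6400.2, 6526 and 5708 in hasty. All 6 hasty libraries lay above all 6 WT libraries. The difference was 1.79-fold in control (log2 change 0.84, SE 0.10, adjusted p = 0.000161) and 1.57-fold in low N (0.65, SE 0.10, adjusted p = 0.000647).

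NovelmiRNA-7 was at 510.4, 599 and 543 CPM in control WT and at 1108, 1095 and 1004 in control hasty. In low N it was at 539, 611 and 588 CPM in WT and at 1037, 1009 and 1018 in hasty. The lowest hasty library, at 1004, was well above the highest WT library, at 611. The level in hasty was 1.94-fold that in WT in control (log2 change 0.96, SE 0.07, adjusted p = 9.93e-06) and 1.76-fold in low N (0.82, SE 0.07, adjusted p = 1.58e-05). These were the smallest adjusted p-values of a member in any contrast.

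NovelmiRNA-127 rose from 397 ± 12.3 to 729 ± 65.9 CPM in control (log2 change 0.88, SE 0.11, adjusted p = 0.000186) and from 389 ± 62.5 to 672 ± 26.5 in low N (0.79, SE 0.11, adjusted p = 0.000409). NovelmiRNA-128 rose from 363 ± 17.8 to 677 ± 66.2 CPM in control (0.90, SE 0.12, adjusted p = 0.000208) and from 376 ± 62.9 to 640.1 ± 18.6 in low N (0.77, SE 0.12, adjusted p = 0.000562). The pair moved together from library to library: NovelmiRNA-127 had the higher deposited count in all 12, by a factor between 1.03 and 1.12. Among the 231 pairs of members this was the steadiest ratio, a feature noticed after the values were seen. NovelmiRNA-173 likewise held between 8.75 and 10.8 times the counts of NovelmiRNA-128 in every library. Whether NovelmiRNA-127 and NovelmiRNA-128 share reads was not tested.

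The other 3 members of this kind were less abundant. NovelmiRNA-80 was at 81.0, 109 and 90.7 CPM in control WT against 157, 180.1 and 159.6 in control hasty, and at 87.2, 86.0 and 74.6 in low-N WT against 166, 139 and 159.9 in low-N hasty. Neither pair of groups overlapped, with log2 changes of 0.82 (SE 0.14, adjusted p = 0.00121) and 0.91 (SE 0.14, adjusted p = 0.000589). NovelmiRNA-129 was at 53.0, 55.6 and 54.1 CPM in control WT and at 114, 91.7 and 131 in control hasty, the largest increase of a called member in that contrast (2.06-fold, log2 change 1.05, SE 0.18, adjusted p = 0.00128). In low N its levels were 69.9 ± 12.4 CPM in WT and 103 ± 7.86 in hasty (0.56, SE 0.18, adjusted p = 0.0335). That last call was lost without control WT replicate 1, control hasty replicate 1, low-N WT replicate 3, low-N hasty replicate 1 or low-N hasty replicate 3 (adjusted p from 0.0504 to 0.119). The same call was also lost with a filter of at least 10 CPM on the mean and with a fit of only the groups compared.

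NovelmiRNA-96, with its identical NovelmiRNA-97, was at 44.6 ± 8.33 CPM in control WT and 88.2 ± 9.57 in control hasty (log2 change 0.98, SE 0.26, adjusted p = 0.0120), and at 45.6 ± 11.3 in low-N WT and 85.1 ± 23.0 in low-N hasty (0.90, SE 0.26, adjusted p = 0.0239). The groups did not overlap in either condition. The call in control was lost without control WT replicate 1 or control hasty replicate 2 (adjusted p from 0.0531 to 0.113). The call in low N was lost without control WT replicate 1, low-N WT replicate 1 or 3, or low-N hasty replicate 2 or 3 (adjusted p from 0.0508 to 0.123). The control call was also lost with library totals and with a filter of at least 10 CPM on the mean. That filter and a fit of only the groups compared each lost the call in low N as well.

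NovelmiRNA-33 and NovelmiRNA-125 were called higher in hasty in control and not in low N with edgeR, and whether their change differs between conditions was not shown by the interaction test (adjusted p = 0.608 and 0.996). NovelmiRNA-33 was at 43.2, 36.6 and 34.9 CPM in control WT and at 70.9, 60.4 and 97.5 in control hasty (log2 change 1.00, SE 0.33, adjusted p = 0.0322). In low-N WT its 3 libraries spread from 36.0 to 89.7 CPM, wider than the difference between the genotype means in either condition. NovelmiRNA-125 was at 25.0, 52.5 and 30.9 CPM in control WT and at 83.5, 76.3 and 51.9 in control hasty, where the groups overlapped (0.96, SE 0.34, adjusted p = 0.0434). The call of NovelmiRNA-33 was lost without any of the 3 control WT replicates, control hasty replicate 1 or 3, or low-N hasty replicate 3 (adjusted p from 0.0542 to 0.108). That of NovelmiRNA-125 was lost without any of 9 libraries, all but control WT replicate 2, control hasty replicate 3 and low-N hasty replicate 1 (adjusted p from 0.0571 to 0.279), and its log2 change ranged from 0.60 to 1.33 as libraries were left out in turn. The control call was also lost in 5 of 10 other settings for NovelmiRNA-33 and in 8 of 10 for NovelmiRNA-125, while in low N DESeq2 called NovelmiRNA-125, and edgeR called NovelmiRNA-33 without low-N WT replicate 1.

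The size of these increases rests on the scaling between libraries. Before scaling, NovelmiRNA-173 had 12007, 14370 and 13248 counts in control WT and 14610, 14740 and 12639 in control hasty, which overlapped. Of the 10 members called higher in control hasty, 9 had separate ranges of CPM, and all 9 called higher in low N had them too. Called members were picked on these values, so this was likely in advance. Among all 22 members, called or not, 9 had higher CPM without overlap in control and 13 in low N. The shares of all tested names were 26.4% and 23.1%. In deposited counts in control only 1 of the 22 members, NovelmiRNA-129, was higher without overlap, where 6.59% of all tested names were. In low N, 3 of the 22 members, NovelmiRNA-7, NovelmiRNA-127 and NovelmiRNA-128, were higher without overlap in deposited counts, against 6.96% of all tested names. For example, NovelmiRNA-7 had 1310, 1221 and 1292 counts in low-N WT and 1577, 1461 and 1407 in low-N hasty. Scaling by library totals alone, without TMM factors, moved the median of all tested names to -0.21 in control, and 7 members were then called higher and 4 lower. Of all 273 tested names, 36 were called higher and 81 lower on that scale.

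**Figure D3:**
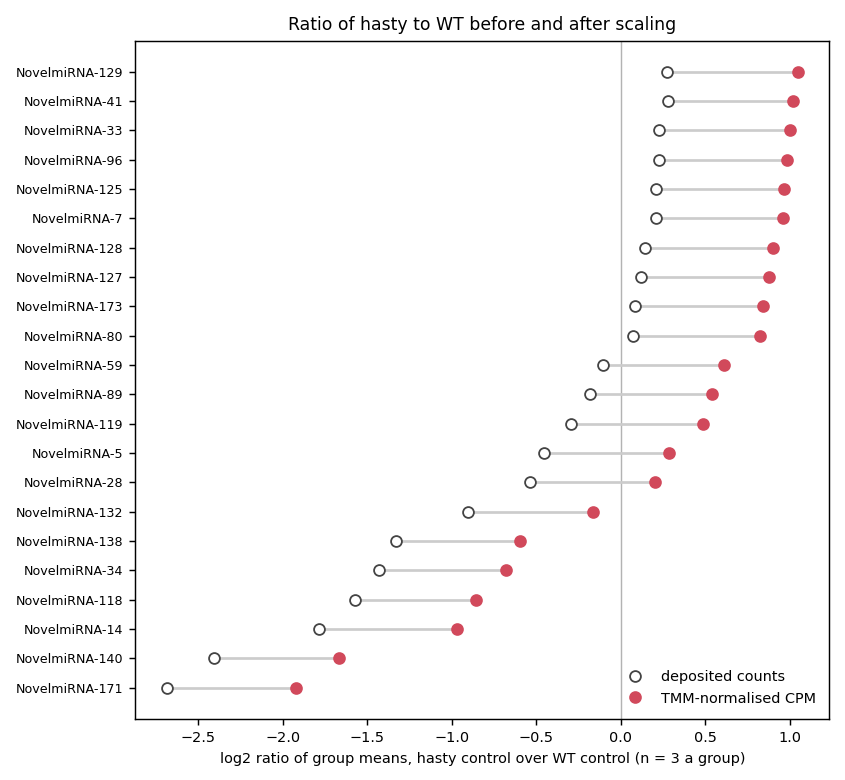
Ratio of the mean in control hasty to the mean in control WT (log2, x axis) for the 22 members, with open circles for deposited counts and filled circles for TMM-normalised CPM. Scaling moves every member to the right by a similar amount: the 10 members called higher lie near 0 in counts and at 0.82 to 1.05 in CPM, while NovelmiRNA-171 is at -1.92 after scaling and lower still before it.

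The members lower in hasty were lower on either scale. In control all 4 called lower had lower deposited counts without overlap, and 3 had lower CPM without overlap. Among all 22 members, called or not, 7 were lower without overlap in counts and 3 in CPM. The shares of all tested names were 53.1% and 33.3%. In low N all 4 called lower were apart on both scales. There 7 of all 22 members were lower without overlap in counts and 5 in CPM, against 42.9% and 27.8% of all tested names. NovelmiRNA-171 had 306, 304 and 302 deposited counts in control WT and 44, 47 and 51 in control hasty, and in low N it had 124, 111 and 106 in WT and 13, 9 and 18 in hasty. In CPM it was at 91.1, 78.3 and 85.6 in control WT and at 20.5, 19.6 and 27.3 in control hasty, a 3.78-fold lower level (log2 change -1.92, SE 0.28, adjusted p = 0.000553). The level was 5.55-fold lower in hasty than in WT in low N (-2.47, SE 0.29). The groups were far apart in both conditions, and these were the largest changes of a member in the genotype contrasts. NovelmiRNA-171 was also called lower in low N than in control within hasty (22.5 ± 4.22 to 9.26 ± 3.46 CPM, -1.27, SE 0.28, adjusted p = 0.0100). Within WT its levels were 85.0 ± 6.44 and 51.6 ± 3.68 CPM, without overlap, and did not pass the threshold (-0.72, SE 0.27, adjusted p = 0.0750). The difference within WT was called with DESeq2, with library totals, with TMM factors from known names, with a fit of only the groups compared, and without low-N hasty replicate 2 or 3. The call within hasty was lost when only the groups compared entered the fit (adjusted p = 0.0956).

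NovelmiRNA-140 was at 23.2, 26.5 and 43.4 CPM in control WT and at 12.6, 8.75 and 8.03 in control hasty, 3.16-fold lower (log2 change -1.66, SE 0.38, adjusted p = 0.00552). In low N it was at 35.4, 22.0 and 37.8 CPM in WT and at 15.8, 12.4 and 9.41 in hasty (-1.34, SE 0.37, adjusted p = 0.0203). Between nitrogen conditions its levels were close, at 31.0 ± 10.8 and 31.7 ± 8.49 CPM in WT and 9.79 ± 2.45 and 12.5 ± 3.19 in hasty, and neither difference was called. The call in low N was lost without low-N WT replicate 1 or 3 or low-N hasty replicate 2 (adjusted p from 0.0516 to 0.0572). Without a filter on low counts this call was lost too (adjusted p = 0.0560).

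NovelmiRNA-118 was lower with loss of HASTY and lower in low N. Its levels were 180.5, 116 and 177 CPM in control WT, 88.1, 96.7 and 76.6 in control hasty, 75.3, 67.5 and 83.7 in low-N WT, and 37.5, 55.2 and 41.2 in low-N hasty. control WT was the highest group and low-N hasty the lowest, and control hasty overlapped with low-N WT. All 4 contrasts were called. Hasty was lower by a log2 change of -0.85 (SE 0.22, adjusted p = 0.00955) in control and -0.76 (SE 0.22, adjusted p = 0.0231) in low N. Low N was lower by -1.06 (SE 0.22, adjusted p = 0.00429) in WT and -0.96 (SE 0.22, adjusted p = 0.0104) in hasty. The genotype call in low N was lost without control hasty replicate 2, low-N WT replicate 3 or low-N hasty replicate 1 (adjusted p from 0.0639 to 0.0725), and also without a filter on low counts and with a fit of only the groups compared.

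NovelmiRNA-138 was called lower in hasty in low N and lower in low N within hasty. It was at 7.23, 8.98 and 6.51 CPM in low-N hasty, where it had 11, 13 and 9 deposited counts, below every other library. Its means were 28.9 ± 7.78 CPM in control WT, 19.1 ± 5.04 in control hasty and 18.8 ± 3.51 in low-N WT. The log2 change was -1.31 (SE 0.32, adjusted p = 0.0111) against low-N WT and -1.33 (SE 0.32, adjusted p = 0.0146) against control hasty. The interaction did not pass the threshold (-0.71, SE 0.45, adjusted p = 0.526), so a lower level specific to the combination was not shown. Without a filter on low counts the first call was lost (adjusted p = 0.0524), and the second was lost with a fit of only the groups compared.

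Low N in WT plants went with higher levels of 3 of the 22 members and lower levels of 3, where 17.2% of all tested names were called higher and 15.0% lower. In hasty, 2 members were called higher and 4 lower, where 8.79% and 15.0% of all names were called higher and lower. The members' median log2 change was 0.06 in WT, as over all tested names, and -0.07 in hasty, against -0.05 over all. The shares called lay near those of all names in both genotypes. All called members had separate ranges of CPM, which was likely in advance, as they were picked on these values. Among all 22 members, 6 had higher and 4 lower CPM without overlap in WT, and 5 and 5 in hasty. Of all tested names, 25.6% were higher and 20.1% lower in WT, and 18.3% and 24.2% in hasty. In deposited counts, 2 of the 3 called higher in WT and 1 of the 2 in hasty were also apart. All members called lower were apart in counts too. Among all 22 members, 2 were higher and 12 lower without overlap in counts in WT, and 2 and 13 in hasty. Of all tested names, 5.13% were higher and 50.5% lower in counts in WT, and 4.40% and 45.8% in hasty. With library totals as the scale, which moved the median of all tested names from 0.06 to -0.27 in WT, the split in WT became 1 higher and 8 lower, and that in hasty 1 higher and 4 lower. Of all 273 tested names, 15 were then called higher and 62 lower in WT, and 17 and 43 in hasty. With DESeq2 the split in hasty was 5 higher and 4 lower, where it called 45 of all tested names higher and 53 lower, against 24 and 41 with edgeR.

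NovelmiRNA-14, with its identical NovelmiRNA-15, had the largest increase in low N in both genotypes. It was at 222, 348 and 244 CPM in control WT and at 1176, 1005 and 899.7 in low-N WT (log2 change 1.92, SE 0.36, adjusted p = 0.00278). In hasty it was at 91.4, 102 and 223 CPM in control and at 681, 417 and 535 in low N, 3.92-fold higher (1.97, SE 0.36, adjusted p = 0.00352). The low N libraries lay above the control libraries in each genotype, on the CPM scale and in deposited counts. The member was also called lower in hasty than in WT in control (-0.97, SE 0.35, adjusted p = 0.0455), where control hasty replicate 3, at 223 CPM, lay just above the lowest WT library, at 222. Without that library the log2 change was -1.49 (adjusted p = 0.00275). The genotype call was lost without any of 9 libraries, all but that replicate, control WT replicate 1 and low-N hasty replicate 3 (adjusted p from 0.0509 to 0.156), and also in 6 of 10 other settings, DESeq2 and median-of-ratios factors among them. In low N every hasty library lay below every WT library, and the difference did not pass the threshold (-0.92, SE 0.35, adjusted p = 0.0653), but did with a fit of only the groups compared and without control hasty replicate 3.

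NovelmiRNA-132, the member with the counts of miR169n, had the largest decrease in low N. It was at 136, 119.7 and 131 CPM in control WT and at 21.0, 30.0 and 34.6 in low-N WT, 4.52-fold lower (log2 change -2.18, SE 0.30, adjusted p = 0.000450). In hasty it was at 129, 112 and 105 CPM in control and at 29.6, 38.0 and 65.8 in low N, 2.59-fold lower (-1.37, SE 0.30, adjusted p = 0.0100). Control and low N libraries did not overlap in either genotype. The decrease in hasty was not shown to differ from that in WT (interaction 0.80, SE 0.41, adjusted p = 0.485). The genotypes overlapped in both conditions and neither genotype contrast was called with edgeR (adjusted p = 0.672 in control and 0.118 in low N). In low N the contrast was called with DESeq2, and with edgeR without low-N hasty replicate 1.

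NovelmiRNA-41 was higher with loss of HASTY and higher in low N. It was at 23.8, 22.7 and 21.0 CPM in control WT, 40.6, 49.6 and 46.6 in control hasty, 39.9, 40.0 and 41.0 in low-N WT, and 65.1, 62.8 and 73.8 in low-N hasty. control WT was the lowest group and low-N hasty the highest, each without overlap with another group. Hasty was higher by a log2 change of 1.02 (SE 0.17, adjusted p = 0.00116) in control and 0.74 (SE 0.17, adjusted p = 0.00691) in low N. Low N was higher by 0.84 (SE 0.17, adjusted p = 0.00382) in WT and 0.56 (SE 0.17, adjusted p = 0.0378) in hasty. With library totals as the scale neither nitrogen difference was called, with an adjusted p of 0.124 in WT. In deposited counts, control and low N overlapped in both genotypes. The nitrogen call in hasty was also lost without control WT replicate 1 or 2, control hasty replicate 1 or 3, low-N WT replicate 2 or any of the 3 low-N hasty replicates (adjusted p from 0.0564 to 0.164). A fit of only the groups compared lost it too, as did counting known names of the same mature sequence as a single name.

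NovelmiRNA-28 was at 60.8, 43.0 and 46.2 CPM in control WT and at 29.2, 24.5 and 19.1 in low-N WT, a 2.06-fold lower level in low N (log2 change -1.04, SE 0.22, adjusted p = 0.00503). In hasty it was at 54.6, 57.1 and 61.1 CPM in control and 45.4, 47.6 and 41.2 in low N (-0.36, SE 0.22, adjusted p = 0.293). low-N WT was below each of the other groups, and in low N the level in hasty was called higher than in WT (0.88, SE 0.22, adjusted p = 0.0113), a call lost with a fit of only the groups compared (adjusted p = 0.0603). The difference between the nitrogen effects themselves did not pass the threshold (interaction 0.68, SE 0.31, adjusted p = 0.448).

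NovelmiRNA-119 was at 9.23, 7.72 and 5.67 CPM in control WT and at 22.6, 24.5 and 20.9 in low-N WT, a 2.99-fold higher level in low N (log2 change 1.58, SE 0.42, adjusted p = 0.0167). In hasty it was at 5.13, 10.4 and 16.1 CPM in control and at 25.6, 15.9 and 22.4 in low N, where the groups overlapped (1.01, SE 0.42, adjusted p = 0.122); DESeq2 called this difference, as did edgeR without control hasty replicate 3. The call in WT was lost without any of the 3 control WT replicates (adjusted p from 0.0550 to 0.0624), which had 31, 30 and 20 deposited counts, and also with library totals and without a filter on low counts.

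Of the remaining members, NovelmiRNA-5, NovelmiRNA-34, NovelmiRNA-59 and NovelmiRNA-89, with its identical NovelmiRNA-90, were called in no contrast with edgeR and TMM factors. DESeq2 called NovelmiRNA-5 and NovelmiRNA-89 in both genotype contrasts, NovelmiRNA-59 in hasty against WT in low N, and NovelmiRNA-34 and NovelmiRNA-89 in low N against control in hasty. With median-of-ratios size factors edgeR also called NovelmiRNA-5 in both genotype contrasts, and with library totals in low N against control in WT. Without control hasty replicate 2, edgeR called NovelmiRNA-59 in hasty against WT in low N and in low N against control in hasty. Without control WT replicate 2, it called NovelmiRNA-34 in low N against control in hasty. NovelmiRNA-5 was the steadiest member, with a ratio of 1.77 between its highest and lowest library, followed by NovelmiRNA-173 with 1.98 and NovelmiRNA-7 with 2.17. It was at 203, 139 and 244 CPM in control WT, 239, 228 and 246 in control hasty, 157, 176 and 182 in low-N WT, and 197, 242 and 190.3 in low-N hasty. Its largest log2 change was 0.29 (SE 0.19, adjusted p = 0.257), in hasty against WT in low N. NovelmiRNA-59 had means of 7.98 CPM in control WT and 21.1 in low-N hasty, and NovelmiRNA-89 of 11.7 and 25.2, with intermediate means in the other groups. NovelmiRNA-34 varied up to 4.63-fold between replicates of 1 group, more than any other member. A miss of the threshold at such low counts does not show that these levels were alike.

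In all, edgeR with TMM factors called 18 of the 22 members in at least 1 contrast. Of these, 16 were called between genotypes, 8 between nitrogen conditions and 6 in both kinds. These are edgeR's calls: with DESeq2 all 22 members were called in at least 1 contrast, 19 between genotypes, 10 between nitrogen conditions and 7 in both kinds. The genotype effects under the 2 nitrogen conditions rest on separate libraries. They had the same sign for 19 members, with 8 called higher in both, 3 called lower in both and none called in opposite directions. Across the 22 members, which are not independent replicates, these effects had a Pearson correlation of 0.89 and a Spearman correlation of 0.63. The nitrogen effects in WT and in hasty, which also share no library, had the same sign for 17 members, with a Pearson correlation of 0.88 and a Spearman correlation of 0.91. All libraries shared 1 scaling and 1 table. The shares of all tested names called in at least 1 contrast, called in both conditions or with the same sign were not counted. These counts therefore do not set the members apart from other names.

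**Figure D4:**
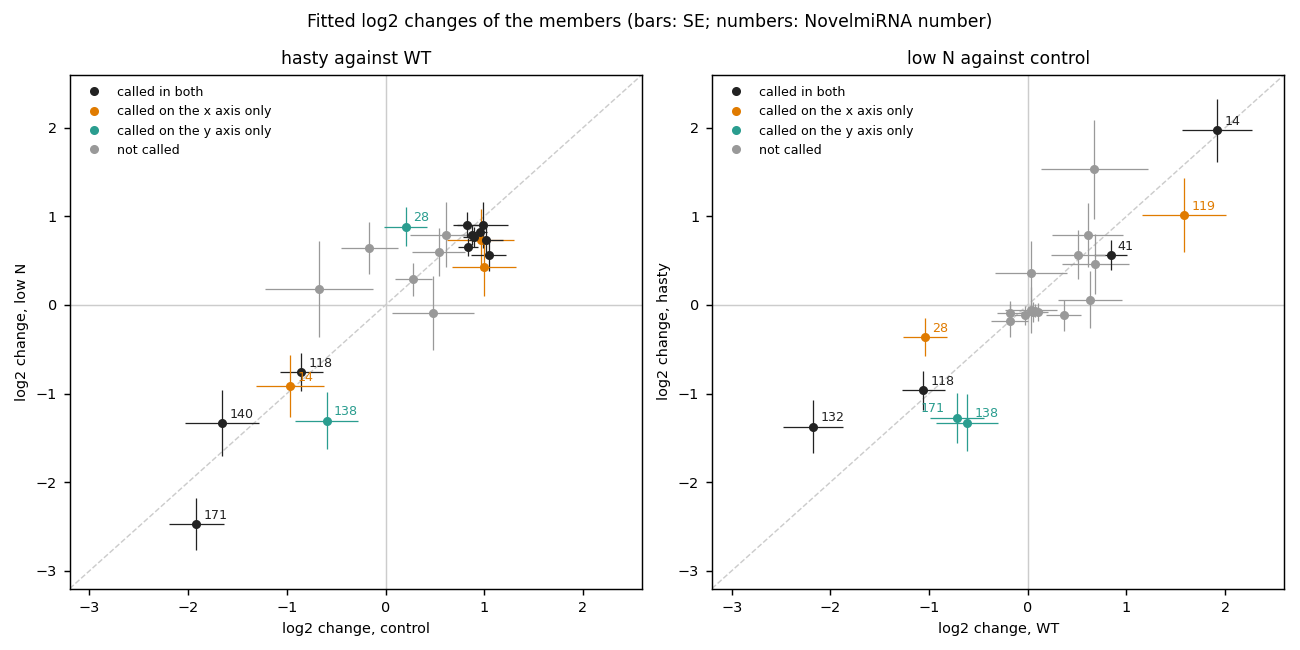
Fitted log2 changes of the 22 members, with SE bars, a dashed line of equal change and NovelmiRNA numbers beside called members outside the crowd. On the left, hasty against WT in control (x axis) and in low N (y axis): the unnumbered crowd at the upper right holds the members called higher in hasty, from 0.82 to 1.05 in control. On the right, low N against control in WT (x axis) and in hasty (y axis), with NovelmiRNA-14 near 2 on both axes and NovelmiRNA-132 at -2.18 and -1.37.

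No member was called in the interaction of genotype and nitrogen with edgeR, where 0.366% of all tested names were called higher and 1.47% lower. None had an unadjusted p under 0.05, and the smallest adjusted p was that of NovelmiRNA-28, at 0.448. With DESeq2 likewise 0 members were called, and 2 had an unadjusted p under 0.05. The fitted interaction of the members ran from -0.71 for NovelmiRNA-138 to 0.86 for NovelmiRNA-34 on the log2 scale, with standard errors of 0.45 and 0.77.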

How the data were processed

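Values were the whole-number counts per miRNA name that the authors deposited in a table of 390 names and 12 libraries. The table is named TPM, but its columns sum to between 1292752 and 3226269. The submitters' processing notes name only mm10, a mouse assembly. Trimming, aligner, counting and the prediction of names are not given in the sources used here. Libraries were PCR-amplified and the labels name no molecular identifiers. Reads listed under several names are counted more than once, so totals are not sequencing depth.

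Names were filtered with filterByExpr (minimum count 10), which kept 273, and fitted with edgeR 4.0.16 in R 4.3.3 (TMM, glmQLFit, glmQLFTest, two-sided, 1 coefficient per group, 8 residual degrees of freedom). The edgeR steps were tried on simulated counts, with equal numbers of increases and decreases in control hasty and the same spread for all names. Such balanced data could not test the scaling between libraries for unequal changes, nor the larger spreads of some members. Genotypes were contrasted within each condition and conditions within each genotype, with the interaction, each adjusted by Benjamini-Hochberg over 273 names with a threshold of 0.05. The SE is the size of the log2 change divided by the square root of F, so it restates the test. The labels call the replicates biological, without saying whether they were grown separately.

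Members and lists were chosen with earlier results of these data known. Named with values were the 6 most abundant members, up to 5 of largest change per direction and contrast with separate groups and at least 10 CPM, the 3 steadiest, and names at the edge of the rule. No member had a lowest count of 1, so the weakest stands for that edge. Members called with overlapping groups, and the ratios between members, were added after their values were seen. Alternatives were DESeq2 1.42.0, other scalings, filters and fits, and leaving out each library.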

Additional observations from a re-analysis of the deposited data

How the results depend on the processing

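The 39 member changes called were recomputed under 22 alternatives each, 858 values in all. The direction was kept in every value; 762 stayed past the threshold and 96 did not. Of the 39, 24 stayed called throughout, and for the other 15 the cause was not tested. The number of members called, 14 and 13 for hasty against WT in control and low N, and 6 and 6 for low N in WT and hasty, stayed within 1.5 times under each alternative but a fit of only the groups compared, which has fewer residual degrees of freedom and called 3 for low N in hasty. With DESeq2 15, 18, 7 and 9 were called. Of all 273 tested names DESeq2 called 74 higher and 69 lower, 73 and 70, 63 and 45, and 45 and 53 in the same contrasts. Leaving out each library in turn gave 11 to 13, 9 to 14, 5 to 7 and 5 to 7, and 0 to 0 for the interaction. The members' share of listed counts then ran from 0.715% to 0.748% in control WT, 1.01% to 1.05% in control hasty, 0.625% to 0.684% in low-N WT and 0.911% to 0.985% in low-N hasty. With known names of the same mature sequence counted as a single name, an alternative chosen after seeing the data, the totals fall and the shares were 1.73%, 2.93%, 1.59% and 2.66%. Without NovelmiRNA-132 and NovelmiRNA-128, also chosen after seeing the data, 13, 12, 5 and 5 were called. Libraries of the same replicate number had correlations of deviations from group means from -0.31 to 0.40. They were not compared with libraries of different numbers, so whether the numbers pair the libraries was not settled. With replicate number as a block, 12, 11, 5, 4 and, for the interaction, 0 were called. The block lost the calls of NovelmiRNA-14 and NovelmiRNA-125 (hasty, control), NovelmiRNA-118 and NovelmiRNA-129 (hasty, low N), NovelmiRNA-119 (low N, WT), and NovelmiRNA-41 and NovelmiRNA-138 (low N, hasty). For hasty against WT, the median of all names, 0 as reported, also moved to -0.10 in control and 0.14 in low N with TMM factors from known names, to 0.14 in low N with median-of-ratios factors and with DESeq2, to 0.20 in low N without control hasty replicate 2, and in control to -0.12 with the block, -0.11 without control WT replicate 1 and -0.13 without low-N hasty replicate 3.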

Other observations

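The 10 predicted names with counts in every library that were left out had, in all 12 libraries, exactly the counts of a known miRNA. They were NovelmiRNA-1 (miR403-3p), NovelmiRNA-2 (miR165a-5p), NovelmiRNA-37 (miR400), NovelmiRNA-39 (miR168a-5p), NovelmiRNA-43 (miR777), NovelmiRNA-73 (miR162a-3p), NovelmiRNA-77 (miR156e), NovelmiRNA-99 (miR157c-5p), NovelmiRNA-131 (miR169m) and NovelmiRNA-134 (miR164b-3p).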
